A study of Danio rerio with 12 samples.

Results

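A list of 8 leukocyte genes was followed through cells sorted from the zebrafish embryonic heart: *lcp1*, *coro1a*, *ptprc*, *spi1b*, *csf1ra*, *mpx*, *lyz* and *mpeg1.1*. They were listed as genes that mark white blood cells, and all 8 were found by Ensembl identifier among the 27191 genes of the count files. The hearts came from the enhancer trap line *sqet31Et*, whose EGFP lights up the atrioventricular canal (AVC) and whose insertion site has not been mapped. EGFP also appears in the bulbus arteriosus (BA) from 72 hpf and, at a low level, in some myocardial cells. Hearts were extracted in bulk, picked by hand and pooled. After dissociation, sorting gave a fluorescent and a non-fluorescent fraction. The 4 groups were GFP+ cells at 72 hpf, GFP− cells at 72 hpf, GFP+ cells at 48 hpf and GFP− cells at 48 hpf, all of the same transgenic line and without further treatment, with 3 libraries each. GFP− therefore means every cell of the preparation without fluorescence, not one cell type. The question for these genes was in which fraction immune cells are found, and at which stage.

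Total counts ran from 20530602 to 62359004 per library. Replicate 1 of GFP− at 72 hpf stood apart, since its 10 most counted genes took 21.0% of the counts, against at most 8.47% in any other library. That library also had the lowest TMM scaling factor, 0.575, so that its values after scaling are higher than those relative to its total count. Levels are given as counts relative to library size (CPM) after this scaling. Unless another fit is named, each log2FC comes from one edgeR fit of the 12 libraries. Where a standard error (SE) is given, it is the absolute log2FC divided by the square root of the test's F. The padj is edgeR's quasi-likelihood p after Benjamini-Hochberg adjustment over the 23222 genes tested, and a gene was called at padj below 0.05. By the methods, one replicate comprised all 4 kinds of sample, while a legend names the replicates technical. If the legend holds, every SD, SE and padj measures only the spread of technical repeats.

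Leukocytes share a set of actin-regulating proteins and a surface phosphatase that other heart cells largely lack, and the transcription factor Spi1 (Pu.1) drives the myeloid branch. In zebrafish embryos the first macrophages and neutrophils arise early from mesoderm, travel through tissue and blood, and are joined by cells from later waves of blood formation. Macrophages clear dead cells and microbes, and neutrophils carry granules with peroxidase and lysozyme. In a bulk sample a lower leukocyte transcript can come from fewer leukocytes or from less of that RNA per leukocyte, and these cannot be told apart.

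Transcripts of the 8 genes were a small part of every library. Their summed counts were 0.00199%, 0.000324% and 0.000934% of all counts in replicates 1, 2 and 3 of GFP+ at 72 hpf, against 0.0261%, 0.0234% and 0.0116% in GFP− at 72 hpf. For 48 hpf the shares were 0.0127%, 0.00925% and 0.00785% in GFP+, against 0.00987%, 0.0240% and 0.00255% in GFP−. Leukocyte transcripts were thus present in all 4 groups, were lowest in the 3 GFP+ libraries at 72 hpf, and overlapped between the fractions at 48 hpf. The lowest value above 0 was 1 count of *mpeg1.1* in the library of 62359004 counts.

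**Figure D1:**
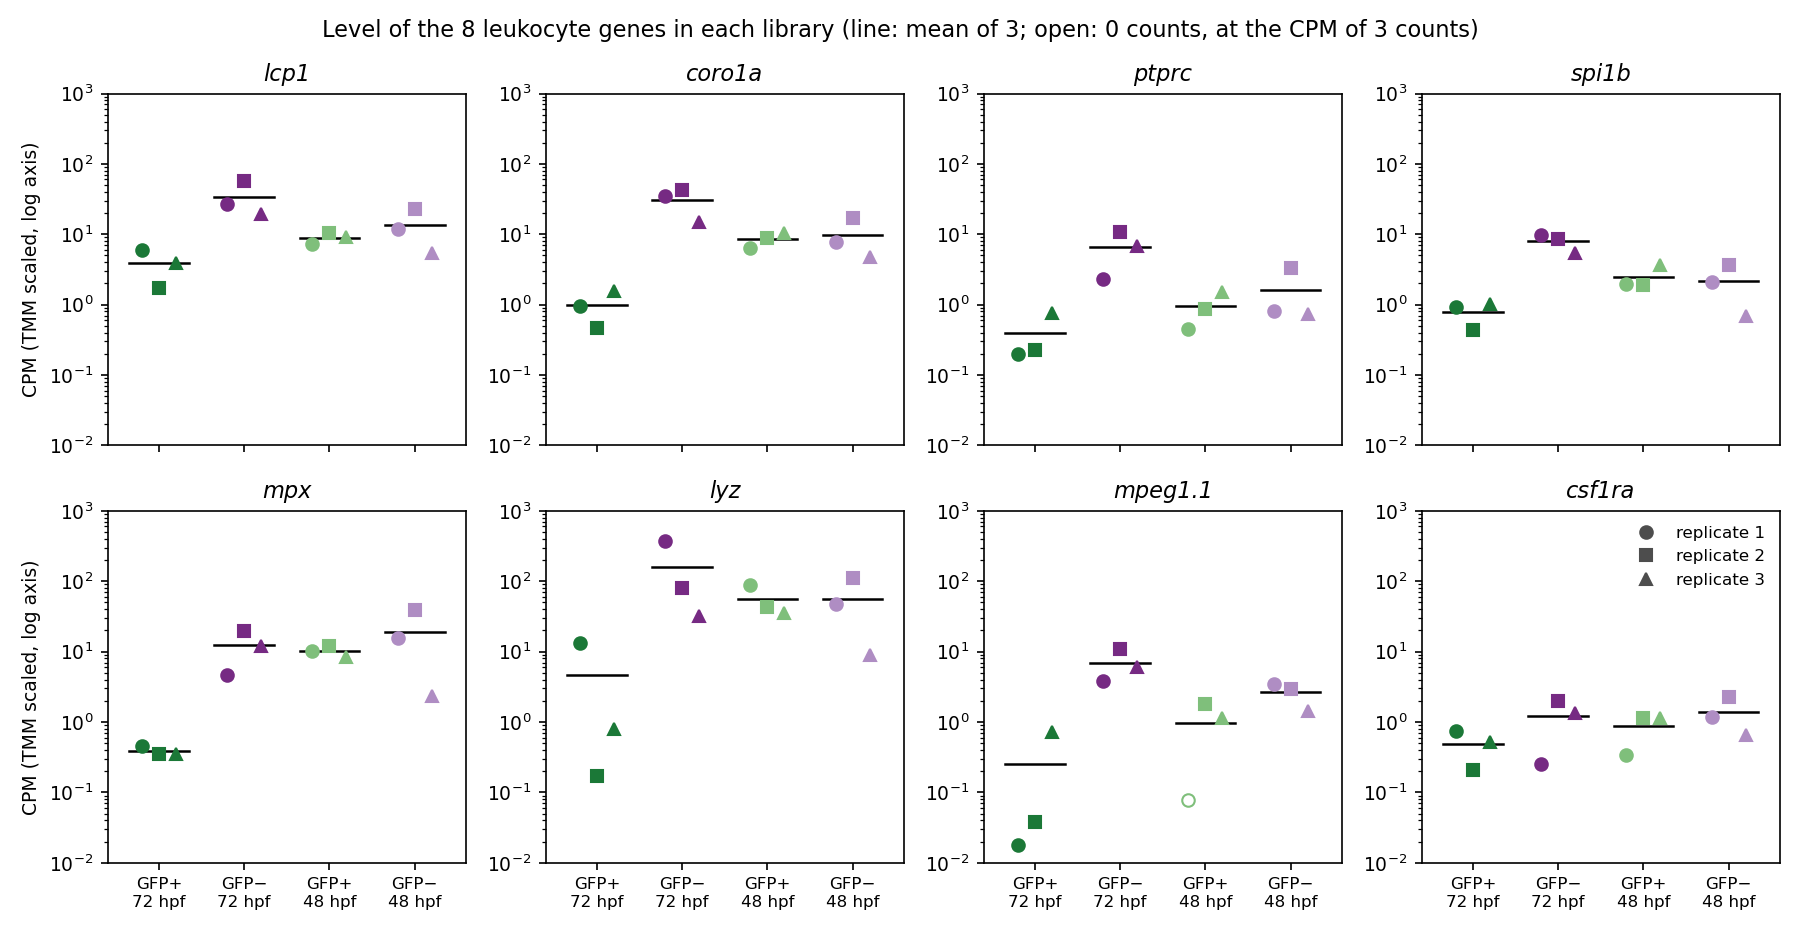
Level of each gene in each library, as TMM-scaled CPM on a log axis, with GFP+ and GFP− at 72 hpf left and GFP+ and GFP− at 48 hpf right; symbols are replicates, lines are means of 3 libraries and the open symbol marks 0 counts, drawn at the CPM of 3 counts. For every gene but *csf1ra* the 3 GFP+ libraries at 72 hpf lie below the 3 GFP− libraries at 72 hpf, while the fractions overlap at 48 hpf for all 8.

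Among the genes of all leukocytes, *coro1a* showed the clearest separation. It encodes coronin 1A, an actin-binding protein of blood cells. At 72 hpf it had 0.960, 0.461 and 1.54 CPM in GFP+ libraries, against 35.2, 42.0 and 15.0 CPM in GFP− libraries. The highest GFP+ library was below the lowest GFP− library by a wide margin, and the level was 31.7-fold lower in GFP+ (log2FC −4.99, SE 0.62, padj 0.00023). At 48 hpf it had 6.37, 8.83 and 10.5 CPM in GFP+, against 7.71, 16.8 and 4.74 CPM in GFP−. All GFP+ values lay within the range of GFP−, and the log2FC was −0.19 (SE 0.52, padj 0.83).

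*lcp1* encodes L-plastin, which bundles actin filaments in leukocytes. It had 5.98, 1.75 and 3.88 CPM in GFP+ at 72 hpf, against 26.7, 56.7 and 19.2 CPM in GFP− at 72 hpf. The groups did not overlap, and *lcp1* was 8.85-fold lower in GFP+ (log2FC −3.15, SE 0.60, padj 0.0032). At 48 hpf the values were 7.29, 10.4 and 9.10 CPM in GFP+, against 11.9, 23.2 and 5.34 CPM in GFP−. Here the wide GFP− range enclosed all GFP+ values (log2FC −0.60, SE 0.55, padj 0.46).

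*ptprc* encodes CD45, a receptor phosphatase on the surface of leukocytes. It had 0.199, 0.230 and 0.752 CPM in GFP+ at 72 hpf, against 2.29, 10.8 and 6.88 CPM in GFP− at 72 hpf. All GFP+ libraries were lower, with 11 to 19 counts each, and the log2FC was −4.17 (SE 0.83, padj 0.0042). At 48 hpf the values were 0.447, 0.878 and 1.52 CPM in GFP+, against 0.822, 3.32 and 0.725 CPM in GFP−. The fractions overlapped and did not pass the test (log2FC −0.79, SE 0.74, padj 0.47).

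The myeloid transcription factor gene *spi1b* followed the same division. It had 0.924, 0.442 and 1.03 CPM in GFP+ at 72 hpf, against 9.74, 8.70 and 5.35 CPM in GFP− at 72 hpf. The groups stood apart by 9.99-fold (log2FC −3.32, SE 0.58, padj 0.0019). At 48 hpf it had 1.97, 1.92 and 3.61 CPM in GFP+, against 2.08, 3.70 and 0.692 CPM in GFP−. All GFP+ values were inside the GFP− range, and the log2FC was 0.20 (SE 0.53, padj 0.82).

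The neutrophil genes *mpx* and *lyz* encode myeloperoxidase and lysozyme C, and *lyz* is also found in some young macrophages. *mpx* had 0.453, 0.346 and 0.356 CPM in GFP+ at 72 hpf, against 4.66, 19.9 and 12.1 CPM in GFP− at 72 hpf. The GFP+ libraries held 9 to 25 counts and were close to each other, all below GFP− (log2FC −4.98, SE 0.86, padj 0.0018). At 48 hpf *mpx* had 10.4, 11.9 and 8.42 CPM in GFP+, against 15.5, 39.3 and 2.37 CPM in GFP−. The GFP− libraries at 48 hpf differed among themselves far more than the GFP+ libraries did, and the log2FC was −0.90 (SE 0.71, padj 0.38).

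*lyz* had 13.2, 0.173 and 0.791 CPM in GFP+ at 72 hpf, against 370.5, 79.0 and 32.5 CPM in GFP− at 72 hpf. Replicate 1 was the highest library in both fractions, and the groups did not overlap. The log2FC was −5.07 (SE 1.45, padj 0.029), and −3.51 (padj 0.069) without replicate 1 of GFP−. It also missed the threshold without replicate 2 of GFP+ (padj 0.074) and without replicate 3 of GFP+ (padj 0.096), and when the 2 groups were fitted alone (padj 0.080). The call was kept with the replicate block, which pairs the fractions of one replicate (edgeR padj 0.0024), and with DESeq2's Wald test (padj 0.0015). With both replicate 1 libraries at 72 hpf left out, an alternative chosen after seeing the data, the log2FC was −7.02 (padj 0.0034). At 48 hpf *lyz* had 87.6, 43.3 and 35.6 CPM in GFP+, against 48.0, 112 and 8.92 CPM in GFP−, and the fractions overlapped (log2FC −0.02, SE 1.22, padj 0.99).

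The macrophage gene *mpeg1.1* encodes a perforin-like protein that kills engulfed bacteria. It had 1, 2 and 18 counts in GFP+ at 72 hpf, or 0.0181, 0.0384 and 0.712 CPM, against 3.81, 10.8 and 6.03 CPM in GFP− at 72 hpf. GFP+ was lower in all libraries, with replicate 3 holding 18 of its 21 counts (log2FC −5.01, SE 1.31, padj 0.019). The call was lost without replicate 1 of GFP+ (log2FC −4.40, padj 0.075), without replicate 2 of GFP+ (log2FC −4.40, padj 0.085) and without both replicate 1 libraries (padj 0.050). At 48 hpf replicate 1 of GFP+ had 0 counts, in a library where 3 counts would be 0.0789 CPM. Replicates 2 and 3 of GFP+ had 1.81 and 1.13 CPM, against 3.50, 2.96 and 1.45 CPM in GFP−. The fractions overlapped at this stage (log2FC −1.43, SE 1.09, padj 0.36).

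The name table gives MPEG1 to 3 Ensembl identifiers, so *mpeg1.1* was taken as ENSDARG00000055290 and *mpx*, which the table calls EPX, as ENSDARG00000019521. Reads may be shared or split between such related genes. The second MPEG1 gene, ENSDARG00000043093, had 32.6, 26.6 and 30.8 CPM in GFP+ at 72 hpf, against 67.0, 131 and 68.5 CPM in GFP− at 72 hpf, and 87.7, 156 and 72.3 CPM in GFP+ at 48 hpf, against 54.4, 109 and 25.5 CPM in GFP− at 48 hpf. It was called lower in GFP+ at 72 hpf (log2FC −1.57, SE 0.48, padj 0.041) and not at 48 hpf (log2FC 0.74, SE 0.47, padj 0.27), and its GFP+ libraries at 72 hpf still held 778 to 1801 counts. The third, ENSDARG00000078569, was below 1 CPM in all 12 libraries.

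*csf1ra* was the exception. It encodes a receptor for colony-stimulating factor 1 that macrophages need, and in zebrafish it also acts in yellow pigment cells. It had 0.742, 0.211 and 0.514 CPM in GFP+ at 72 hpf, against 0.254, 1.98 and 1.36 CPM in GFP− at 72 hpf. The GFP− library of replicate 1, with 3 counts, lay inside the GFP+ range, and the log2FC was −1.35 (SE 0.73, padj 0.23). At 48 hpf it had 0.342, 1.14 and 1.13 CPM in GFP+, against 1.18, 2.30 and 0.659 CPM in GFP−, with a log2FC of −0.67 (SE 0.71, padj 0.53). At this depth no difference of *csf1ra* was detectable in any of the comparisons.

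At 72 hpf, 7 of the 8 genes were therefore lower in GFP+ than in GFP−, where 10.8% of all genes tested were called lower. The same 7 had groups that did not overlap, against 15.1% of all genes with GFP+ below GFP− throughout. The median log2FC of the 8 was −4.58, beside −0.02 for all genes tested. At 48 hpf 0 of the 8 were called by edgeR and 0 by DESeq2, where edgeR called 14.4% of all genes lower and 14.6% higher, and 0 had an unadjusted p under 0.05. None of the 8 had groups apart at 48 hpf, against 27.4% of all genes with GFP+ lower and 27.8% with GFP+ higher throughout. Their median log2FC was −0.63, beside 0.03 for all genes. A missed threshold does not show equal levels, since the GFP− libraries at 48 hpf varied widely, with replicate 2 the highest for 7 of the 8 genes and replicate 3 the lowest for 8 of 8.

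**Figure D2:**
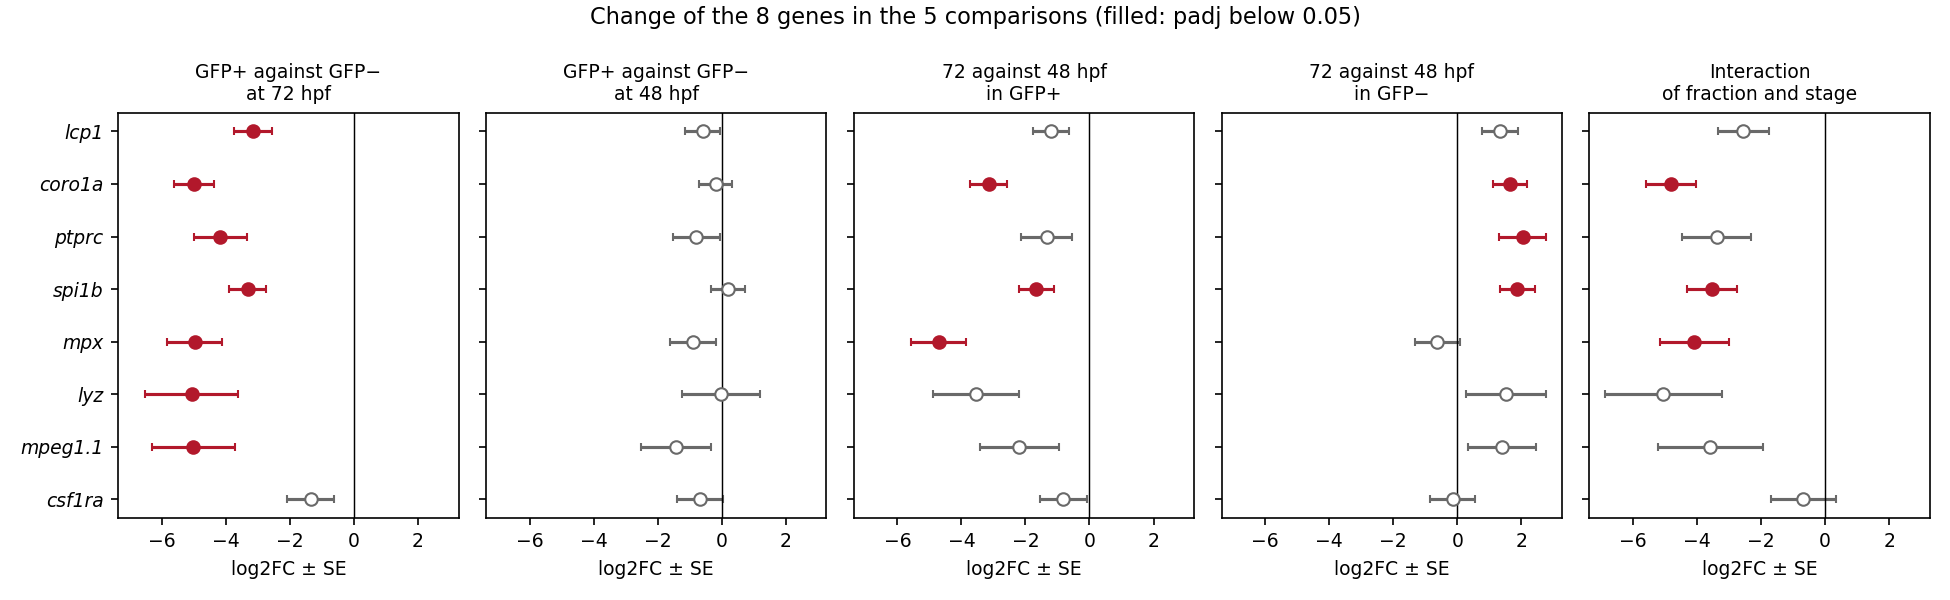
The log2FC of each gene with its SE in the 5 comparisons, with filled symbols for padj below 0.05. GFP+ was lower than GFP− for 7 of 8 genes at 72 hpf and for 0 of 8 at 48 hpf, and the interaction was called for *coro1a*, *mpx* and *spi1b*.

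Whether the difference between the fractions changed with stage was tested by the interaction. It was called for 3 of the 8 genes, all more negative at 72 hpf, where 5.70% of all genes tested were called in that direction. *coro1a* had an interaction log2FC of −4.80 (SE 0.78, padj 0.0046), *spi1b* of −3.52 (SE 0.78, padj 0.017) and *mpx* of −4.08 (SE 1.07, padj 0.035). The call of *coro1a* held in all 12 fits that left out 1 library. That of *spi1b* was lost without replicate 2 of GFP+ at 72 hpf (padj 0.051), and that of *mpx* held in 4 of the 12. The call of *mpx* was lost without any one of the 6 GFP+ libraries, without replicate 1 of GFP− at 48 hpf or without replicate 2 of GFP− at 72 hpf, its padj running from 0.015 to 0.091 over the 12 fits.

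With the replicate number as a block the interaction was called for 5 genes, adding *ptprc* (log2FC −3.39, padj 0.074, and 0.040 with the block) and *lyz* (log2FC −5.05, padj 0.11, and 0.035 with the block). For the interaction this block joins libraries of the same number across the stages, not only the fractions of one stage. *lyz* also passed without replicate 1 of GFP+ at 72 hpf (padj 0.026), and *ptprc* without replicate 2 of GFP− at 48 hpf or replicate 1 of GFP− at 72 hpf (padj 0.031 in each). *lcp1* had −2.55 (padj 0.068) and passed without replicate 2 of GFP− at 48 hpf (padj 0.038) and without replicate 3 of GFP− at 72 hpf (padj 0.035). *mpeg1.1* had −3.58 (padj 0.19) and *csf1ra* −0.68 (padj 0.70). The median over the 8 was −3.55, beside −0.10 for all genes.

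The stages were also compared within each fraction. In GFP+ cells 3 of the 8 genes were lower at 72 than at 48 hpf, where 11.5% of all genes tested were called lower. *mpx* fell 26.2-fold (log2FC −4.71, SE 0.85, padj 0.0024) and *coro1a* 8.85-fold (log2FC −3.15, SE 0.58, padj 0.0026), and both calls held without any one library. *spi1b* was at the threshold (log2FC −1.65, SE 0.56, padj 0.049, and 0.065 with the replicate block), and lost its call in each of the 6 fits that left out 1 library. *lyz* had a log2FC of −3.54 (padj 0.077, and 0.013 with the block), and −6.99 (padj 0.013) without replicate 1 of GFP+ at 72 hpf. The values of *lcp1*, *coro1a*, *mpx*, *lyz* and *spi1b* did not overlap between the stages, while 24.9% of all genes were lower throughout. *lcp1* had −1.20 (padj 0.14), *ptprc* −1.34 (padj 0.25), *csf1ra* −0.83 (padj 0.45) and *mpeg1.1* −2.19 (padj 0.23, and 0.038 without replicate 3 of GFP+ at 72 hpf).

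In GFP− cells the calls went the other way. *spi1b* was 3.65-fold higher at 72 than at 48 hpf (log2FC 1.87, SE 0.55, padj 0.014), *ptprc* 4.13-fold (log2FC 2.05, SE 0.74, padj 0.036) and *coro1a* 3.15-fold (log2FC 1.65, SE 0.53, padj 0.021). These 3 of 8 stand beside 26.1% of all genes called higher, a share near their own. *spi1b* kept its call in all 6 fits without 1 library, *coro1a* in 3 (padj up to 0.080) and *ptprc* in 2 (padj up to 0.14). *coro1a* lost it without replicate 1 or 3 at 48 hpf or replicate 2 at 72 hpf, and *ptprc* also without replicate 3 at 72 hpf. *lcp1* had 1.35 (padj 0.063), and passed without replicate 2 of GFP− at 48 hpf (padj 0.024) and without replicate 3 of GFP− at 72 hpf (padj 0.034). The neutrophil gene *mpx* had −0.63 (padj 0.48) and *lyz* 1.51 (padj 0.33), which became −0.026 without replicate 1 of GFP− at 72 hpf. *mpeg1.1* had 1.39 (padj 0.29) and *csf1ra* −0.14 (padj 0.88). Only *spi1b* and *mpeg1.1*, 2 of 8, had all values at 72 hpf above those at 48 hpf, beside 27.1% of all genes.

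The stage comparisons depend on how libraries are scaled. Scaling by total counts without TMM moved the median log2FC of all genes by −0.29 in GFP+ and by −0.24 in GFP−. Under it the 3 calls in GFP+ stayed 3, and the 3 in GFP− became 0, with a log2FC of 1.29 for *coro1a* (padj 0.086) and 1.88 for *ptprc* (padj 0.089), and a padj of 0.054 for *spi1b*. The interaction of *mpx* had a padj of 0.061 with total counts.

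Summed over the 8 genes the level was 11.9 ± 9.62 CPM in GFP+ at 72 hpf (SD, n = 3), against 260.5 ± 179 CPM in GFP− at 72 hpf. At 48 hpf it was 88.5 ± 22.9 CPM in GFP+, against 106.3 ± 90.2 CPM in GFP−. *lyz* made up 58.7%, 4.74% and 8.26% of the sum in replicates 1, 2 and 3 of GFP+ at 72 hpf, against 81.8%, 34.3% and 33.0% in GFP− at 72 hpf. At 48 hpf its share was 50.1% to 76.6% in GFP+, against 35.8% to 55.0% in GFP−. Without it the mean was 7.18 ± 3.21 CPM in GFP+ at 72 hpf, against 99.8 ± 45.0 CPM in GFP− at 72 hpf, and 33.0 ± 5.44 CPM in GFP+ at 48 hpf, against 50.0 ± 38.3 CPM in GFP− at 48 hpf. The order of the group means was the same with and without *lyz*.

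**Figure D3:**
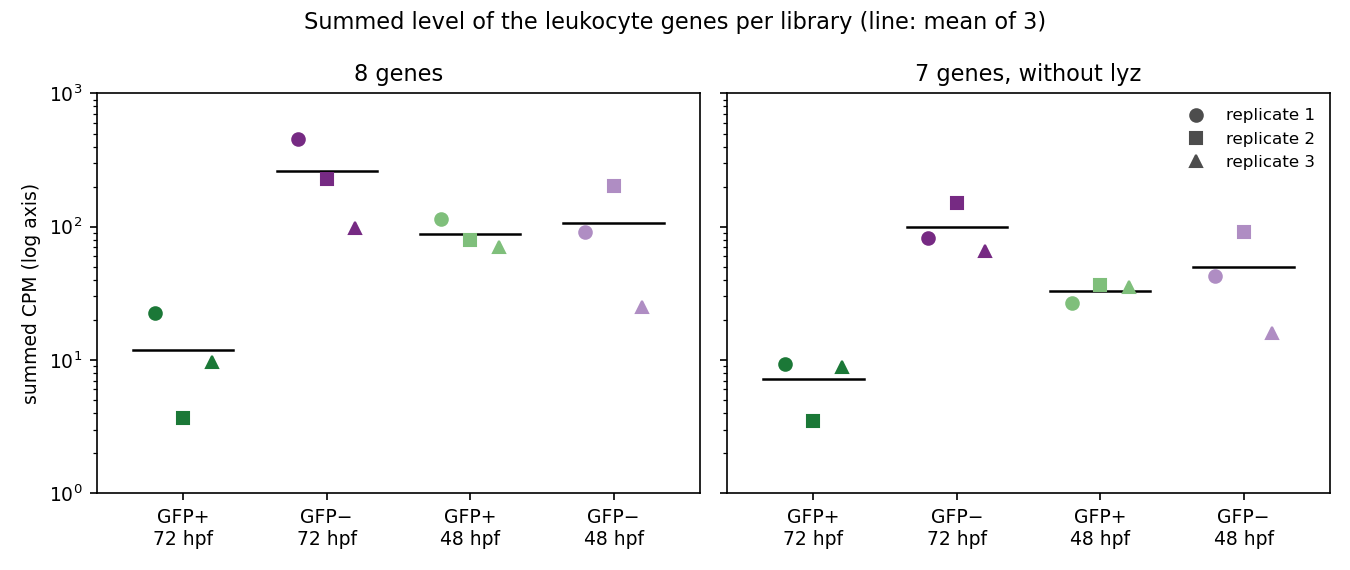
Summed CPM of the 8 genes (left) and of the 7 genes without *lyz* (right) in each library on a log axis; symbols are replicates and lines are means of 3. GFP+ libraries at 72 hpf lie between 3.65 and 22.5 CPM for the 8 genes and GFP− libraries at 72 hpf between 98.4 and 453 CPM, while at 48 hpf GFP+ lies between 71.0 and 114 CPM, inside the 24.9 to 203 CPM of GFP−.

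The proportion of the 2 neutrophil transcripts was not constant. The count of *lyz* per count of *mpx* was 29.2, 0.50 and 2.22 in replicates 1, 2 and 3 of GFP+ at 72 hpf, against 79.5, 3.96 and 2.69 in GFP− at 72 hpf. At 48 hpf it was 8.45, 3.65 and 4.22 in GFP+, against 3.10, 2.85 and 3.76 in GFP−. Replicate 1 at 72 hpf was thus the highest library in both fractions, with 729 *lyz* and 25 *mpx* counts in GFP+ (95% interval of the ratio 19.6 to 45.4) and 4374 and 55 counts in GFP− (95% interval 61.0 to 106). These intervals are exact binomial and cover counting error only. In the GFP− library of replicate 1 at 72 hpf, *lyz* was high and *mpx* was low relative to replicates 2 and 3.

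**Figure D4:**
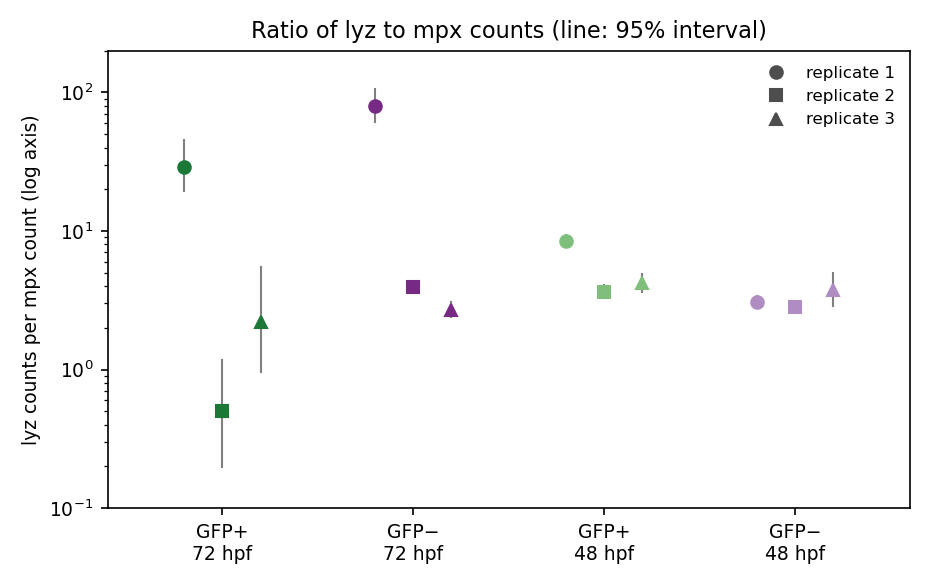
Count of *lyz* per count of *mpx* in each library on a log axis, with exact binomial 95% intervals as lines. Both replicate 1 libraries at 72 hpf, at 29.2 in GFP+ and 79.5 in GFP−, lie above the other 10, of which the highest is 8.45.

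Other genes of the same blood lineages were compared with the 8 as lists of marker genes, which were chosen with earlier results of these data known. Of 10 further genes of all leukocytes, 5 were lower and 1 higher in GFP+ than in GFP− at 72 hpf, and 0 lower and 2 higher at 48 hpf. Over all genes tested, 10.8% were called lower and 6.22% higher at 72 hpf, and 14.4% lower and 14.6% higher at 48 hpf. *laptm5*, a lysosomal protein of blood cells, averaged 0.249 CPM in GFP+ and 19.9 CPM in GFP− at 72 hpf (log2FC −6.37, padj 0.00023). *plek*, the signalling protein pleckstrin, averaged 0.896 CPM in GFP+ and 28.3 CPM in GFP− at 72 hpf (log2FC −4.99, padj 8.2e-05). *lcp2a*, an adaptor of immune receptors, had −3.52 (padj 0.0028), and at 48 hpf these 3 genes had −0.24, −0.05 and 0.09, none called. The exceptions were *coro2a*, another coronin, higher in GFP+ at both stages (log2FC 2.03, padj 0.0019 at 72 hpf and 2.45, padj 0.00045 at 48 hpf), and *hcls1*, higher in GFP+ at 48 hpf (log2FC 1.80, padj 0.0056).

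Of 17 further macrophage and microglia genes tested, 12 were lower and 0 higher in GFP+ at 72 hpf, beside 10.8% and 6.22% of all genes. Their median log2FC was −3.73. At 48 hpf 3 were lower, a share near the 14.4% of all genes, and 0 higher, beside 14.6%, with a median of −0.90. *ctss2.1*, a cathepsin of macrophages, averaged 0.481 CPM in GFP+ and 11.1 CPM in GFP− at 72 hpf (log2FC −4.54, padj 0.00038). *havcr1*, a receptor for dying cells, had −3.73 (padj 0.0028) and *stab1*, a scavenger receptor also made by endothelium, −2.06 (padj 0.034). The call of *stab1* held in 1 of 6 fits without 1 library (padj up to 0.13). Between the stages 11 of the 17 were higher at 72 than at 48 hpf in GFP−, beside 26.1% of all genes. In GFP+ 2 were higher, beside 11.4% of all genes, and 2 were lower, beside 11.5%. The lower ones were *stab1* (log2FC −2.93, padj 0.0056) and *ctss2.1* (log2FC −1.87, padj 0.033), with the call of *ctss2.1* kept in 2 of 6 fits without 1 library (padj up to 0.12). *timd4*, a receptor for dying cells, was higher at 72 hpf in both fractions, with 4.63 in GFP− (padj 0.0001) and 2.28 in GFP+ (padj 0.0064). The transcription factor gene *irf8* was lower in GFP+ at 48 hpf (log2FC −1.19, padj 0.024) and had −0.75 at 72 hpf (padj 0.17). Its call at 48 hpf was kept in 2 of 6 fits without 1 library (padj up to 0.11). Also called lower at 48 hpf were *ccl34b.1* and *c1qb*, both of low level. *ccl34b.1* averaged 0.0176 CPM in GFP+ and 0.881 CPM in GFP− at 48 hpf (log2FC −5.3, padj 0.001, and 0.00099 with the replicate block). At 72 hpf *ccl34b.1* had −7.68 (padj 8.7e-05). *c1qb* had −3.24 at 48 hpf (padj 0.045, and 0.067 with the block) and −6.26 at 72 hpf (padj 0.002).

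Of 18 neutrophil and granulocyte genes tested, 4 were lower and 2 higher in GFP+ at 72 hpf, beside 10.8% and 6.22% of all genes. At 48 hpf 2 were lower, a share no larger than the 14.4% of all genes, and 5 were higher, beside 14.6%. *npsn*, a granule protease, averaged 0.788 CPM in GFP+ and 14.0 CPM in GFP− at 72 hpf (log2FC −4.12, padj 0.00081), and at 48 hpf 6.85 CPM in GFP+ and 8.11 CPM in GFP− (padj 0.78). *srgn*, the granule proteoglycan serglycin, had −3.22 at 72 hpf (padj 0.0007). The 2 genes higher in GFP+ at 72 hpf were *cebpa* (log2FC 1.39, padj 0.011) and *pnp5a* (log2FC 1.21, padj 0.023). Leaving out 1 library kept these calls in 5 and 4 of 6 fits (padj up to 0.067 and 0.097). Those higher in GFP+ at 48 hpf included *cfl1l*, a cofilin-like gene (log2FC 4.09, padj 0.00027), *cebpa*, a transcription factor also of liver (log2FC 3.17, padj 0.00011), and *mmp9*, a matrix protease made by many cells (log2FC 2.43, padj 0.00051). Their direction was opposite to that of *mpx* and *npsn*, which were not called at 48 hpf. The 2 lower in GFP+ at 48 hpf were *ltb4r* (log2FC −1.56, padj 0.011) and *cxcr1* (log2FC −1.41, padj 0.015). Leaving out 1 library kept these calls in 4 and 3 of 6 fits (padj up to 0.053 and 0.069). Of 5 genes of the phagocyte NADPH oxidase, *ncf1* was lower (log2FC −1.55, padj 0.042) and *ncf4* higher (log2FC 0.90, padj 0.038) in GFP+ at 72 hpf, each lost with the replicate block (padj 0.064 and 0.060) and in 5 of 6 fits without 1 library, and 0 of 5 were called at 48 hpf.

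Lymphoid, progenitor and thrombocyte genes were read likewise. Of 9 lymphoid genes tested, 4 were lower and 1 higher in GFP+ at 72 hpf, and 1 was lower at 48 hpf. The gene lower at 48 hpf was *pax5* (log2FC −3.77, padj 0.0012), also lower at 72 hpf (log2FC −4.16, padj 0.0084). In GFP− *pax5* averaged 9.86 CPM at 48 hpf and 0.436 CPM at 72 hpf. Whether its transcripts came from lymphoid cells was not tested. *ikzf1*, the lymphoid transcription factor Ikaros, averaged 0.765 CPM in GFP+ and 26.9 CPM in GFP− at 72 hpf (log2FC −5.20, padj 0.00017). The higher gene was *cd79a* (log2FC 1.58, padj 0.045, and 0.065 with the replicate block), kept in 1 of 6 fits without 1 library. Of 8 progenitor genes, of which *cebpa* and *csf3r* are also on the neutrophil list, 4 were lower and 2 higher in GFP+ at 72 hpf, and 1 was lower and 1 higher at 48 hpf. *myb* had −3.73 (padj 0.00021) and *lmo2*, a cofactor of blood and endothelial transcription, −3.28 (padj 0.00032). The 2 progenitor genes higher at 72 hpf were *cbfb* (log2FC 1.51, padj 0.019) and *cebpa* (log2FC 1.39, padj 0.011). Each was kept in 5 of 6 fits without 1 library (padj up to 0.085 and 0.067). Of 7 thrombocyte genes, 5 were lower and 0 higher in GFP+ at 72 hpf, among them the platelet glycoprotein gene *gp9* (log2FC −6.37, padj 5.5e-05) and the thrombopoietin receptor gene *mpl* (log2FC −6.01, padj 0.0013). At 48 hpf 1 of the 7 was lower, *gp9* (log2FC −1.86, padj 0.017, kept in 3 of 6 fits without 1 library). The 2 higher were *f5* (log2FC 4.43, padj 0.0064), which encodes coagulation factor V, and *thbs1b* (log2FC 2.24, padj 0.0035), a thrombospondin gene. In GFP+ at 48 hpf *f5* averaged 73.2 CPM and *thbs1b* 44.3 CPM, against 0.371 CPM for *gp9* and 0.668 CPM for *mpl*. Whether *f5* and *thbs1b* transcripts came from thrombocytes was not tested. Over all genes 10.8% were called lower and 6.22% higher at 72 hpf, and 14.4% lower and 14.6% higher at 48 hpf. All 7 thrombocyte genes were called higher at 72 than at 48 hpf in GFP−, beside 26.1% of all genes.

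**Figure D5:**
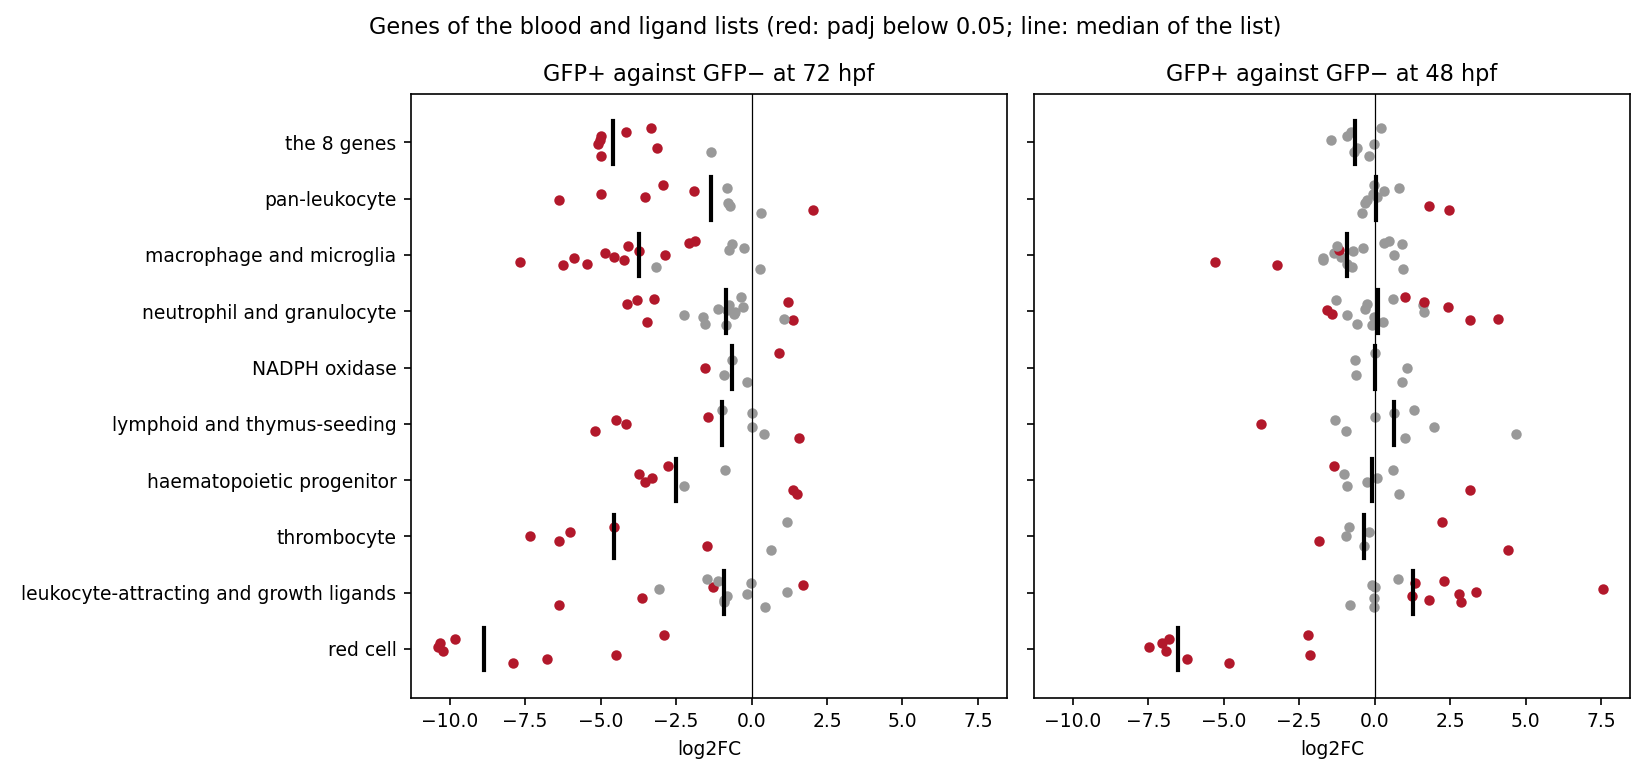
The log2FC of each gene tested in the blood and ligand lists at 72 hpf (left) and 48 hpf (right), with red symbols for padj below 0.05 and a line at the median of each list. The median of the 8 genes is −4.58 at 72 hpf and −0.63 at 48 hpf, and that of the macrophage list −3.73 and −0.90, while the red cell genes are lower in GFP+ at both stages.

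Red cells gave a different pattern from the leukocyte genes. All 8 red cell genes were called lower in GFP+ than in GFP− at both stages, beside 10.8% of all genes at 72 hpf and 14.4% at 48 hpf. Their median log2FC was −8.86 at 72 hpf and −6.51 at 48 hpf. Their summed level was 27.2, 36.9 and 13.5 CPM in GFP+ at 72 hpf, against 55867, 6407 and 5240 CPM in GFP− at 72 hpf, and 4.66, 36.9 and 5.31 CPM in GFP+ at 48 hpf, against 1420, 1184 and 2345 CPM in GFP− at 48 hpf. At 48 hpf the summed level of the 8 leukocyte genes in GFP+ thus lay inside the range of GFP−, and that of the red cell genes far below its GFP− range. Single genes did not all follow the leukocyte sum. At 48 hpf *mpeg1.1* in replicates 1 and 3 of GFP+ (0 and 1.13 CPM) was below the lowest GFP− library (1.45 CPM). So were *csf1ra* (0.342 against 0.659 CPM) and *ptprc* (0.447 against 0.725 CPM) in replicate 1 of GFP+. At 72 hpf both sums were lower in GFP+.

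Markers of tissues outside the heart were read in the same libraries. Liver genes were called higher in GFP+ at 48 hpf, 7 of 7, beside 14.6% of all genes. At 72 hpf 0 of 7 were called, where 6.22% of all genes were higher and 10.8% lower. The summed level of 7 liver genes was 2306 to 2942 CPM in GFP+ and 1778 to 5144 CPM in GFP− at 72 hpf, and 492 to 2160 CPM in GFP+ and 13.1 to 47.9 CPM in GFP− at 48 hpf. That of 4 skin genes was 915 to 1702 CPM in GFP+ and 139 to 217 CPM in GFP− at 72 hpf, and 1649 to 3898 CPM in GFP+ and 53.8 to 145 CPM in GFP− at 48 hpf. That of 5 retina and neuron genes was 8.49 to 30.7 CPM in GFP+ and 288 to 835 CPM in GFP− at 72 hpf, and 117 to 168 CPM in GFP+ and 1564 to 2272 CPM in GFP− at 48 hpf. Skin genes were called higher in GFP+ for 2 of 4 at 72 hpf and 4 of 4 at 48 hpf, beside 6.22% and 14.6% of all genes. Retina and neuron genes were called lower for 5 of 5 at 72 hpf and 3 of 5 at 48 hpf, beside 10.8% and 14.4%. The part of these tissues in the leukocyte result was not tested.

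Cells of the heart itself also differed between the groups. The summed level of 6 smooth muscle and bulbus genes was 6627 to 7937 CPM in GFP+ and 1635 to 3144 CPM in GFP− at 72 hpf, and 122 to 152 CPM in GFP+ and 22.3 to 41.1 CPM in GFP− at 48 hpf. At 72 hpf *fbln5* alone averaged 5260 CPM in GFP+ and 284 CPM in GFP−. At that stage 3 of the 6 were called higher in GFP+, beside 6.22% of all genes, and 0 lower. Not called were, among others, *acta2* (1050 against 1323 CPM, padj 0.61) and *tagln* (164 against 521 CPM, padj 0.11). All 6 were called higher at 72 than at 48 hpf in each fraction, beside 11.4% of all genes in GFP+ and 26.1% in GFP−. Their median log2FC was 5.13 in GFP+ and 7.16 in GFP−. The summed level of 6 cardiomyocyte genes was 958 to 1524 CPM in GFP+ and 162 to 726 CPM in GFP− at 72 hpf. At 48 hpf it was 1684 to 3152 CPM in GFP+ and 25.7 to 137 CPM in GFP−. Of 4 epicardial genes 2 were higher in GFP+ at 72 hpf and 3 at 48 hpf, beside 6.22% and 14.6% of all genes. Of 4 endocardial and endothelial genes 1 was lower at 72 hpf, beside 10.8% of all genes. At 48 hpf 0 of these 4 were called, where 14.4% of all genes were lower and 14.6% higher. The part of these cells in the leukocyte result was not tested.

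Ligands that attract or sustain leukocytes were read from the same counts. Of 14 tested, 8 were higher and 0 lower in GFP+ at 48 hpf, where 14.6% of all genes were called higher. At 72 hpf 1 was higher and 3 were lower, where 6.22% and 10.8% of all genes were called. *csf1a*, a ligand of the receptor that *csf1ra* encodes, averaged 8.21 CPM in GFP+ and 1.13 CPM in GFP− at 48 hpf (log2FC 2.86, padj 0.0026), and 2.81 CPM in GFP+ and 5.21 CPM in GFP− at 72 hpf (padj 0.26). *il34*, another ligand of that receptor, averaged 29.03 CPM in GFP+ and 8.98 CPM in GFP− at 72 hpf (log2FC 1.71, padj 0.049), and had −0.07 at 48 hpf (padj 0.94). The neutrophil chemokine genes *cxcl8a* (log2FC 3.36, padj 0.043) and *cxcl18b* (log2FC 2.78, padj 0.0075) were higher in GFP+ at 48 hpf. At 72 hpf *cxcl8a* had 1.19 (padj 0.38) and *cxcl18b* −0.16 (padj 0.88), and both were higher at 72 than at 48 hpf in each fraction. The chemokine gene *ccl34a.4* was lower in GFP+ at 72 hpf (log2FC −6.38, padj 0.0038), and *il1b*, an inflammatory cytokine gene, had −1.29 (padj 0.027). Leaving out 1 library kept the call of *cxcl8a* at 48 hpf in 1 of 6 fits (padj up to 0.15), and those of *il34* and *il1b* at 72 hpf in 2 of 6 each (padj up to 0.20 and 0.11). The call of *cxcl18b* between the stages in GFP+ was kept in 3 of 6 (padj up to 0.068).

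Across the 12 libraries the 8 genes moved together, with a median Pearson r of log2 CPM of 0.772 over the 28 pairs and a range of 0.40 to 0.93. Within groups, after each group's mean was removed, the median was 0.561 and the range −0.224 to 0.883. The libraries share group, replicate and scaling, so these r describe the libraries and carry no p. The genes most like *coro1a* over the 12 libraries were *ccdc88b* (r = 0.968), *fam174b* (0.949), *pecam1b* (0.949), *st3gal3* (0.948) and *si:dkeyp-1h4.9* (0.947). Those most like *mpeg1.1* were *cx32.2* (r = 0.928), *olmf4l1* (0.907), *c1ql1* (0.904), *ccl34a.4* (0.874) and ENSDARG00000098263 (0.869). Those most like *mpx* were *msi2* (r = 0.951), *cyp1b1* (0.944), *nrros* (0.942), *tbc1d10c* (0.939) and *grb10a* (0.936).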

How the data were processed

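Poly-A RNA of the sorted cells was amplified as cDNA with SMART-Seq v4, and Nextera XT gave 12 libraries. Per the labels, the authors used bcl2fastq 2.16.0.10, cutadapt 1.17, Salmon 0.9.1 on GRCz11, R 3.5.2 and DESeq2 1.29.13. The authors deposited whole-number counts per Ensembl gene and library, without normalization. How transcript estimates were summed to genes is not given in the sources used here.

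The software was edgeR 4.0.16 and DESeq2 1.42.0 in R 4.3.3, with limma 3.58.1, and scipy 1.17.1, pandas 2.3.3 and numpy 2.4.6 in Python 3.11.15. Genes were filtered with filterByExpr (23222 kept), scaled by TMM and tested with edgeR's quasi-likelihood test in 1 fit of 4 groups, Benjamini-Hochberg adjusted over all genes kept, with padj below 0.05 and no fold limit. Symbols came from a gene name table and the paper's tables (25459 genes), matched without regard to case. The log2 CPM behind each r used a prior count of 2.

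The members and lists were chosen with earlier results of these data known. From each list and comparison, the rule named up to 3 called genes per direction with the largest log2FC and a mean log2 CPM of at least 0. Genes named beyond it were chosen after their values were seen.

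Pairing by replicate number follows the labels and the methods, where one replicate comprised all 4 kinds of sample. Deviations of same-numbered libraries from their group means correlated at r = 0.0975, 0.314 and 0.157 between the fractions at 48 hpf, 0.338, −0.0823 and 0.369 at 72 hpf, −0.00217, 0.0136 and −0.114 between the stages in GFP+, and 0.0900, 0.277 and 0.00243 in GFP−. Alternatives were DESeq2's size factors, total counts, DESeq2's Wald test, no filter, the replicate block, the 2 groups alone, each library left out, and a minimum of 10 counts in every library of at least 1 group. The replicate block was stage and replicate number together for the comparisons between fractions. For the stage comparisons and the interaction it was the replicate number alone. The counts of all 66 pairs of libraries differed.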

Additional observations from a re-analysis of the deposited data

Results flagged for a closer look

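The difference between GFP+ and GFP− changed with stage by the interaction test, at padj below 0.05, for 25 genes: 3 of the 8 leukocyte genes and 22 that the naming rule took from the other blood and ligand lists. Genes enter that rule because they were called, so their number is a description. Further genes of these lists were called without being named by the rule, such as *spi1a* (−2.92) and *ptpn6* (−2.20). Each of the 25 was more negative at 72 than at 48 hpf. Over all genes tested, 5.70% were called in that direction, a share that cannot be set against genes taken because they were called. Of the 8 leukocyte genes these were *coro1a* (interaction log2FC −4.80), *mpx* (−4.08) and *spi1b* (−3.52).

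Among other genes of all leukocytes they were *laptm5* (−6.13), *plek* (−4.93) and *lcp2a* (−3.61), each with fractions that were not called apart at 48 hpf and were lower in GFP+ at 72 hpf, and *hcls1* (−2.52), which was higher in GFP+ at 48 hpf and not called at 72 hpf (log2FC −0.72). In the macrophage list the rule took *ctss2.1* (−3.42). *cxcr3.2* (−3.485) and *ctss2.2* (−3.51) of that list were also called, but had a mean log2 CPM below 0. From the neutrophil list came *npsn* (−3.87), *srgn* (−3.84), *cfl1l* (−3.00) and *mmp9* (−2.71). Of these, *mmp9* was higher in GFP+ at 48 hpf and had a log2FC of −0.28 at 72 hpf (not called). From the NADPH oxidase genes came *ncf1* (−2.64). *cfl1l* and *cebpa* (−1.78) were higher in GFP+ at 48 hpf and had a positive log2FC at 72 hpf as well, of 1.08 for *cfl1l* (not called) and 1.39 for *cebpa* (called, but with padj 0.067 without replicate 1 of GFP+ at 72 hpf).

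Lymphoid and progenitor genes with an interaction were *ikzf1* (−4.24), *lmo2* (−3.38) and *myb* (−2.71), and thrombocyte genes were *mpl* (−5.81), *gp9* (−4.51) and *nfe2* (−3.69). Among the ligands they were *ccl34a.4* (−5.56), *csf1a* (−3.78), *kitlgb* (−3.42), *csf1b* (−2.71) and the chemokine gene *cxcl12b* (−2.04). The padj of *ccl34a.4* was 0.044, and 0.055 with the replicate block. *csf1a*, *kitlgb*, *csf1b* and *cxcl12b* were higher in GFP+ at 48 hpf, by 2.86, 2.31, 1.80 and 1.24, and had −0.92, −1.10, −0.91 and −0.80 at 72 hpf, where they were not called.

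In the 12 fits that left out 1 library, the interaction was called each time for *coro1a*, *laptm5*, *plek*, *npsn*, *srgn*, *ikzf1*, *lmo2*, *myb*, *gp9*, *nfe2*, *mmp9* and *csf1a*. It was called in 11 of the 12 for *spi1b* and *mpl*, in 10 for *ctss2.1* and *kitlgb*, in 9 for *hcls1*, in 6 for *cfl1l*, *ncf1* and *csf1b*, in 4 for *mpx*, *lcp2a* and *cebpa*, and in 2 for *ccl34a.4* and *cxcl12b*.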

How the results depend on the processing

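The count of leukocyte genes lower in GFP+ at 72 hpf was 7, and 5 to 7 when 1 library was left out; at 48 hpf it was 0 throughout. The count higher in GFP− at 72 against 48 hpf was 3, became 0 with total counts, and was 1 to 4 when 1 library was left out. The interaction count was 3, became 5 with DESeq2's Wald test, 5 with the replicate block and 5 without both replicate 1 libraries at 72 hpf, and was 1 to 5 when 1 library was left out. The block changed no other count of the 8 genes. The summed level of GFP+ at 48 hpf was 88.5 CPM and 33.0 CPM without *lyz*. These last settings, without *lyz* or without both replicate 1 libraries, were chosen after seeing the data, and the causes of the changes were not tested.

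Signs turned only for changes that were not called. At 48 hpf the block gave *lyz* a log2FC of 0.53, and leaving out 1 library gave ranges of −0.99 to 0.044 for *lcp1*, −0.53 to 0.45 for *coro1a*, −1.43 to 0.19 for *mpx*, −0.54 to 0.96 for *lyz*, −0.23 to 0.83 for *spi1b* and −1.29 to 0.28 for *ptprc*. In GFP− between the stages the ranges were −1.18 to 0.45 for *mpx*, −0.026 to 2.48 for *lyz* and −0.69 to 0.43 for *csf1ra*, and without both replicate 1 libraries *lyz* had −0.023 and *csf1ra* 0.27. Depth limits *mpeg1.1*, *csf1ra* and *ptprc* most, since several libraries held under 20 counts of each.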
